A study of Oryctolagus cuniculus with 3 samples.

Results

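POU5F1, ETV4, GATA3, HAND1 and KRT8 are genes that mark or regulate the pluripotent cells and the trophoblast of the early embryo. They were chosen by name, and their probes were found through the symbols, RefSeq transcripts and gene identifiers that the array's own annotation gives. They are 5 of the 6516 named genes measured, and each had 1 probe on the array, which also passed into the deposited table of values. Rabbit morulae, collected on day 3, were stored by slow freezing or by vitrification and then moved to recipient does, from which embryos were collected 3 days later, on day 6. Vitrification was done at 20 °C in 12.5% and then 20% each of dimethyl sulphoxide and ethylene glycol; the freezing solutions, the rabbit strain and the number of embryos in a sample are not given in the sources used here. Each of 3 Agilent arrays held RNA of frozen embryos in one dye and RNA of vitrified embryos in the other, with 100 ng of total RNA labelled per sample. Frozen embryos were in Cy5 on replicates 1 and 3 and in Cy3 on replicate 2. Fresh embryos were not analysed here; all ratios compare the storage methods.

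The first cell fate decision of a mammalian embryo separates the trophoblast, which attaches to the uterus and forms the fetal part of the placenta, from the inner cell mass, which then divides into epiblast and hypoblast. POU5F1 (OCT4), a POU homeodomain factor, sustains the pluripotent epiblast. GATA3, a zinc finger factor, and HAND1, a basic helix-loop-helix factor, act in the trophoblast lineage, and KRT8 builds the keratin filaments of this simple epithelium with KRT18. ETV4 is an ETS factor of the PEA3 group, whose transcription follows fibroblast growth factor signalling through ERK.

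Each gene was read by 1 oligonucleotide, so its measurement rests on a single stretch of sequence. The probes are given from 5′ to 3′ as the array lists them, because no second probe checks any of them. Capitals mark a TGA triplet that ends the HAND1 probe in its reading frame without another stop.
POU5F1: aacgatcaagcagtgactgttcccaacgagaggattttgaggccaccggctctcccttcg
ETV4: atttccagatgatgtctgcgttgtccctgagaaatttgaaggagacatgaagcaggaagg
GATA3: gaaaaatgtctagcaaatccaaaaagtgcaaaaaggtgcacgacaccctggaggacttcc
HAND1: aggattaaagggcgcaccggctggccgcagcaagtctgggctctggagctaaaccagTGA
KRT8: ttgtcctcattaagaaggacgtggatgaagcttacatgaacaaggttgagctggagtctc

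All probes were 60 bases long, with 55.0% G and C for POU5F1, 60.0% for HAND1 and 45.0% for each of ETV4, GATA3 and KRT8. No other probe of the array shared a run of 20 bases with any of them. The array's annotation, whose genome build is not named in the files, places the POU5F1 probe at chr12:20169066-20169125 on the minus strand, from base 905 of its transcript. The GATA3 probe lies at chr16:12463688-12463747 on the plus strand, from base 1099 of its transcript. The HAND1 probe lies at chr3:35920087-35920146 on the minus strand, from base 597, and was annotated to 2 RefSeq transcripts. The ETV4 probe covers chr19:44025721-44025887 on the minus strand, a span of 167 bases for 60 bases of probe, so that it joins exons across an intron. The KRT8 probe likewise spans 425 bases at chr4:36816147-36816571 on the minus strand. Its annotation calls the transcript keratin 8-like and lists 2 RefSeq transcripts, so signal from a close copy of KRT8 cannot be told apart from that of KRT8 itself.

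Values below are log2 ratios of frozen over vitrified, negative where the signal was lower after slow freezing. They were tested against 0 with limma over the 3 arrays, and p-values were adjusted over all 22839 probes. Adjusted p was under 0.05 for 0 probes (0%) and 0 of the 5 genes, the smallest adjusted p over all probes being 0.55. Without adjustment p was under 0.05 for 1020 probes (4.47%), POU5F1 and ETV4 among them. With 3 arrays the smallest p of an exact test that turns signs is 0.25, so none was used.

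The arrays did not resemble each other evenly. Over all probes the log2 ratios of replicates 2 and 3 correlated at 0.48, those of replicates 1 and 3 at -0.01 and those of replicates 1 and 2 at -0.36. Which way the values of replicate 2 run was inferred from spike-in controls and is likely, not stated, so the mean of each of the 5 genes and the median of each gene list are also given with the sign of that array turned. All 5 probes were well above background, unsaturated and free of outlier flags in both channels of replicates 1 and 3, whose scanner files were used. The labels call the arrays biological replicates.

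POU5F1 was lower in frozen than in vitrified embryos on each of the 3 arrays. Its log2 ratios were -0.75, -0.52 and -1.62 on replicates 1, 2 and 3, or 1.69-fold, 1.43-fold and 3.08-fold lower. Replicate 3 stood lowest, and all arrays lay on the same side of 0. The processed signal was 5319 in frozen and 8962 in vitrified embryos on replicate 1, and 3154 against 9711 on replicate 3. The vitrified signals of these arrays were thus closer to each other than the frozen ones. The mean was -0.96 ± 0.58 (SD, n = 3), with a 95% confidence interval of -1.57 to -0.36 (limma, adjusted p = 0.83). The RNA came from embryos in bulk, so that fewer cells of a type and less RNA per cell cannot be told apart.

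Among all probes of an array POU5F1 stood near the low end. It was lower than 94.3% of probes on replicate 1, 94.9% on replicate 2 and 99.7% on replicate 3. Its mean was lower than 99.7% of all means. Of all probes 1.24% were below 0 on each array and at least 1.5-fold lower on average, and of the 5 genes POU5F1 alone was. With the sign of replicate 2 turned the mean was -0.62 (limma, adjusted p = 0.84), and the arrays no longer shared a sign.

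**Figure D1:**
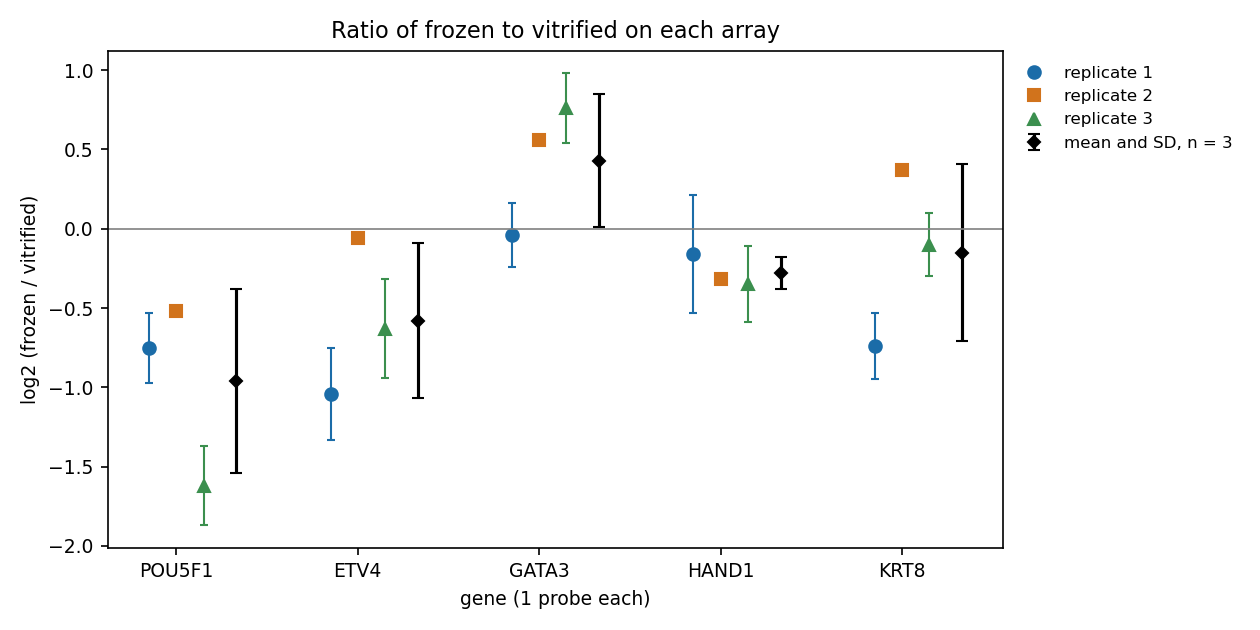
Log2 ratio of frozen over vitrified (y axis) for each gene (x axis), with 1 point per array. Thin bars on replicates 1 and 3 are the scanner software's error of the spot, and black diamonds with bars are the mean and SD of 3 arrays. POU5F1, ETV4 and HAND1 lay below 0 on all 3 arrays, and KRT8 and GATA3 on both sides of 0.

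Dye normalization weighed on the POU5F1 ratio of replicate 1. Before it, net of local background, the frozen channel (Cy5) read 9804 and the vitrified channel (Cy3) 6847, a log2 ratio of 0.52. Over all probes of that array the median of this unnormalized ratio was 0.95, so POU5F1 lay below the bulk of probes both before and after. On replicate 3 the unnormalized ratio was already -1.19, against a median of 0.23. The scanner software put the error of the normalized log2 ratio at 0.22 on replicate 1 and 0.25 on replicate 3, and a different correction of the raw signals (normexp background correction and loess) gave -0.77 and -1.62.

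Among other genes of pluripotent cells no common direction appeared. Of the 46 genes listed for pluripotency, 18 were measured, and 10 of these had a mean below 0 and 8 above it. Their median was -0.12, against -0.01 over all named genes, and -0.05 without POU5F1 and ETV4. Turning the sign of replicate 2 made it -0.04. Below 0 on all 3 arrays were 4 of the 18, a rate to be read against 10.9% of all probes, and above 0 on all 3 was 1, against 11.7%. STAT3, which carries LIF signals, had 0.41, 0.07 and 0.25, a mean of 0.24 ± 0.17 (SD, n = 3). None of the 18 passed the adjusted threshold.

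The RNA-binding protein LIN28A had -0.02, -0.36 and 0.03, and the epithelial cadherin CDH1 had -0.18, 0.28 and 0.03. DNMT3B, the de novo DNA methyltransferase, had -0.63, 0.22 and -0.12. Each of these lay on both sides of 0. ESRRB, an orphan nuclear receptor, had the highest mean of the list, 0.52, with -0.20, 0.45 and 1.31. OTX2 and NODAL, which pattern the embryo's axis, had means of -0.52 each, but 0.25 and 0.38 on replicate 2. NANOG, SOX2 and SALL4 were not analysed here.

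**Figure D2:**
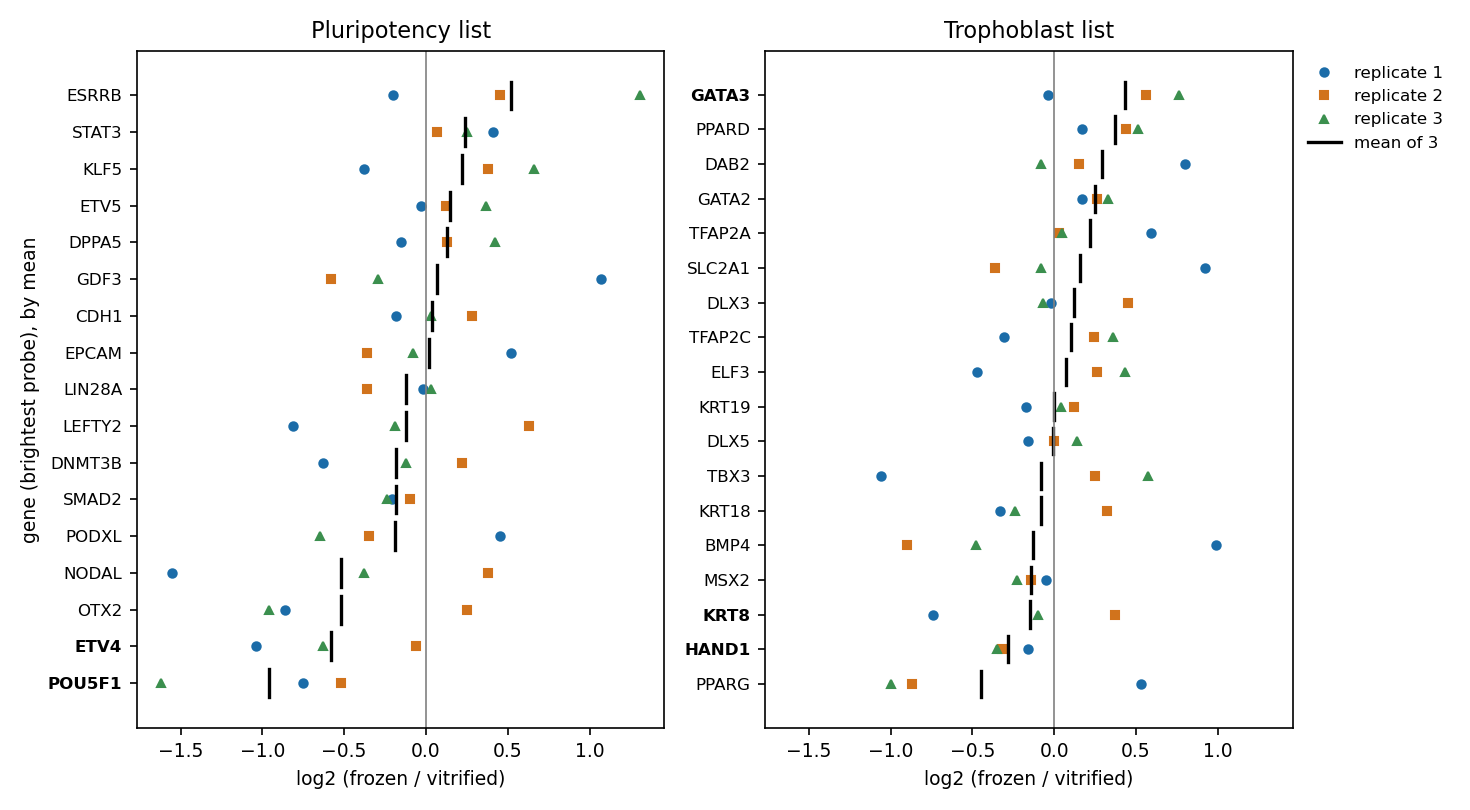
Log2 ratio of frozen over vitrified (x axis) for measured genes of the pluripotency list (left, 1 of the 18 not drawn) and for the 18 of the trophoblast list (right), 1 point per array and a black bar at the mean, in the order of the means; the genes described here are in bold. POU5F1 and ETV4 had the lowest means on the left and GATA3 the highest on the right, while most other genes had arrays on both sides of 0.

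Markers of the hypoblast, the inner cell layer that borders the epiblast, lay below 0 in most values. Of 23 listed markers 13 were measured, 11 had a mean below 0, and 7 lay below 0 on all 3 arrays. Of all 6516 named genes 3472 had a mean below 0 and 756 lay below 0 on all 3 arrays. The median of the 13 markers was -0.56, with list medians of -0.06, -0.70 and -0.93 on replicates 1, 2 and 3. With the sign of replicate 2 turned the median was 0.03 and 0 of the 13 lay below 0 on all 3 arrays, so the direction of the list rests on the inferred sign. POU5F1 itself had -0.75, -0.52 and -1.62 on replicates 1, 2 and 3. The collagen chain COL4A2 had -0.43, -0.51 and -0.80, and the apolipoprotein gene APOA2 had -0.37, -0.73 and -1.45. APOB, another apolipoprotein gene, had -0.27, -0.81 and -1.88, and CER1, a secreted inhibitor of NODAL, had -0.59, -0.14 and -0.93. These 4 were named for their single sign. Of other members, picked with their values known, APOA1, RBP4, DKK1 and COL4A1 were above 0 on replicate 1, at 0.51, 0.66, 0.59 and 0.30, and below it on replicates 2 and 3. The hypoblast factors GATA6 and SOX17 were not analysed here. The signals of the 13 genes summed to 5750 in frozen and 4669 in vitrified embryos on replicate 1, and to 5076 and 10771 on replicate 3. The part of hypoblast cells in the POU5F1 result was not tested.

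Red cell genes differed widely between arrays. The alpha globin gene HBA had 1.88, -2.23 and -1.79, the beta globin gene HBB2 had 2.62, -3.77 and -3.59, and ALAS2, the red cell enzyme that opens haem synthesis, had 0.34, -1.73 and -1.21. These 3 were chosen after their values were seen, and in each replicate 1 opposed the other arrays. The 4 measured genes of the blood list, ALAS2, CD14, CD68 and S100A9, had a median of -0.04. HBA and HBB2, with means of -0.71 and -1.58, were not among them, because the list names the globins otherwise. The 4 measured genes of the uterine list had a median of -0.26 and the 3 of the mesoderm list 0.01. These medians with the sign of replicate 2 turned were 0.17, -0.05 and 0.10. The uterine marker HOXA11 lay below 0 on all 3 arrays with a mean of -0.44 ± 0.51 (SD, n = 3), and the monocyte marker CD14 had -0.07, -0.24 and -0.01. Between probes near the 3′ end of a transcript and probes at least 500 bases upstream, the median differences in log2 ratio over 211 transcripts were 0.24, -0.13 and -0.06 on replicates 1, 2 and 3. The part of these differences in any result here was not tested.

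ETV4 was lower in frozen embryos on all 3 arrays in the deposited values, but its signal was dim and the size depended on how the raw signals were corrected and normalized. Its log2 ratios were -1.04, -0.06 and -0.63. Replicate 1 was lowest and replicate 2 was close to 0. The processed signals were 42 in frozen and 86.2 in vitrified embryos on replicate 1, and 31.7 and 49.1 on replicate 3. The mean was -0.58 ± 0.49 (SD, n = 3), 1.49-fold lower, with a 95% interval of -1.11 to -0.04 (limma, adjusted p = 1.00). With the sign of replicate 2 turned it was -0.54. ETV4 was lower than 98.3% of probes on replicate 1, 62.1% on replicate 2 and 95.5% on replicate 3.

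On replicate 1 the raw signals of the ETV4 spot, net of local background, were 88.2 in frozen and 87.8 in vitrified embryos, a log2 ratio of 0.01, where the median over all probes of that array was 0.95. On replicate 3 this unnormalized ratio was -0.67, against a median of 0.23, so ETV4 lay below the bulk of probes on both arrays. This place was not particular to ETV4. HAND1, with a mean log2 signal of 5.60 against 5.61 for ETV4, had unnormalized ratios of 0.27 and -0.46 on replicates 1 and 3. Normexp correction with an offset of 50 and loess draws the ratios of dim spots toward 0. After it the log2 ratios of ETV4 were -0.04 on replicate 1 and -0.09 on replicate 3, a mean of -0.06. Which of the 2 steps moved the value was not tested. The raw spot was 2.18 to 2.84 times its local background over the 4 readings. The scanner software's error of the log2 ratio was 0.29 on replicate 1 and 0.31 on replicate 3.

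ETV5, the other measured member of the PEA3 group, had -0.03, 0.12 and 0.37, and so did not share the sign of ETV4 on replicates 2 and 3. Of 47 genes listed for the fibroblast growth factor and ERK pathway and its PEA3 factors, 22 were measured, with 9 means below 0, 13 above it and a median of 0.04, or -0.05 with the sign of replicate 2 turned. Of these, 5 lay below 0 on all 3 arrays and 3 above, to be read against 10.9% and 11.7% of all probes. The growth factor FGF2 had -0.73, -1.04 and -2.11, a mean of -1.30 ± 0.73 (SD, n = 3; limma, adjusted p = 0.81). Its probe too was dim, with a mean log2 signal of 5.77, where the median over the table was 8.63. FRS2, an adaptor of the receptors, had -0.08, -0.65 and -0.06. The ERK phosphatase DUSP6 and the inhibitor SPRY1 were outside the deposited table of values.

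GATA3 was higher in frozen embryos on 2 of the 3 arrays and level on the third. Its log2 ratios were -0.04, 0.56 and 0.76 on replicates 1, 2 and 3. The signal was 1452 in frozen and 1492 in vitrified embryos on replicate 1, and 2182 against 1291 on replicate 3. The difference between the storage methods on replicate 1 was smaller than the scanner software's error of 0.20, while on replicate 3 it exceeded the error of 0.22. It was higher than 47.5% of probes on replicate 1, 96.1% on replicate 2 and 98.7% on replicate 3. The mean was 0.43 ± 0.42 (SD, n = 3), with a 95% interval of -0.06 to 0.91 (limma, adjusted p = 1.00). Without replicate 1 the mean was 0.66 and adjusted p was 0.045, in a fit of the other 2 arrays in which 796 probes (3.49%) passed. With the sign of replicate 2 turned the mean was 0.05.

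GATA2, a close relative of GATA3 in the trophoblast, had 0.17, 0.26 and 0.33, above 0 on all 3 arrays. Its mean was 0.25 ± 0.08 (SD, n = 3; limma, adjusted p = 1.00), and its 2 probes had means of 0.25 and 0.28. The spread of GATA2 over the arrays was smaller than that of GATA3. GATA4, a hypoblast factor of the family, had -0.50, -0.05 and -0.38. The family thus held members on each side of 0.

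HAND1 was lower in frozen embryos on all 3 arrays by a small amount. Its log2 ratios were -0.16, -0.32 and -0.35, the narrowest range of the 5 genes at 0.18. Its signals were dim, 32.5 in frozen and 36.4 in vitrified embryos on replicate 1 and 60.9 against 77.4 on replicate 3. The scanner software's errors were 0.37 and 0.24 on these arrays, so that the ratio of replicate 1 lay within its error and that of replicate 3 beyond it. The software's own p-values for these ratios were 0.66 and 0.14. The mean was -0.28 ± 0.10 (SD, n = 3), with a 95% interval of -0.61 to 0.05 (limma, adjusted p = 1.00). With normexp correction and loess the ratios of replicates 1 and 3 were 0.01 and -0.21, and with the sign of replicate 2 turned the mean of all arrays was -0.06.

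TCF12, an E protein that can pair with HAND1, had 0.30, -0.08 and -0.08. Of 28 listed GATA factors, helix-loop-helix factors and their cofactors 11 were measured, with 6 means below 0, 5 above it and a median of -0.03, or -0.07 with the sign of replicate 2 turned. NFYA, a subunit of the CCAAT-binding factor, had -0.24, -0.14 and -0.45, a mean of -0.28 ± 0.16 (SD, n = 3). None of the 11 passed the adjusted threshold.

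KRT8 had no consistent direction. Its log2 ratios were -0.74, 0.37 and -0.10. The signal on replicate 1 was 11081 in frozen and 18501 in vitrified embryos, while on replicate 3 the channels were close at 17298 and 18495. The mean was -0.15 ± 0.56 (SD, n = 3), with a 95% interval of -0.74 to 0.43 (limma, adjusted p = 1.00), and its sign changed to 0.14 without replicate 1. With the sign of replicate 2 turned the mean was -0.40 and all arrays lay below 0. As for POU5F1, the unnormalized ratio of replicate 1 had the other sign, 0.66, below the median of 0.95 over all probes. On replicate 3, unlike POU5F1, KRT8 had an unnormalized ratio of 0.42, above the median of 0.23. Its normalized ratio there, -0.10, was below the median of 0.02.

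KRT18, the partner of KRT8 in the filament, had -0.33, 0.32 and -0.24, the same signs as KRT8 on each array and smaller sizes. KRT19, a further keratin of simple epithelia, had -0.17, 0.12 and 0.04. All 3 keratins lay below 0 on replicate 1 and above it on replicate 2. Over all probes these 2 arrays correlated at -0.36, so opposite signs are not read as particular to keratins. With the sign of replicate 2 turned, KRT8, KRT18 and KRT19 lay below 0 there too, at -0.37, -0.32 and -0.12. Of 30 listed keratins, desmosome genes and their partners 8 were measured, with 5 means below 0 and 3 above. Their median was 0.00, with -0.20, 0.33 and -0.07 on replicates 1, 2 and 3, and -0.18 with the sign of replicate 2 turned. The desmosomal cadherin DSG2 alone of the 8 lay above 0 on all 3 arrays, with 0.10, 0.47 and 0.09, where 11.7% of all probes did.

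**Figure D3:**
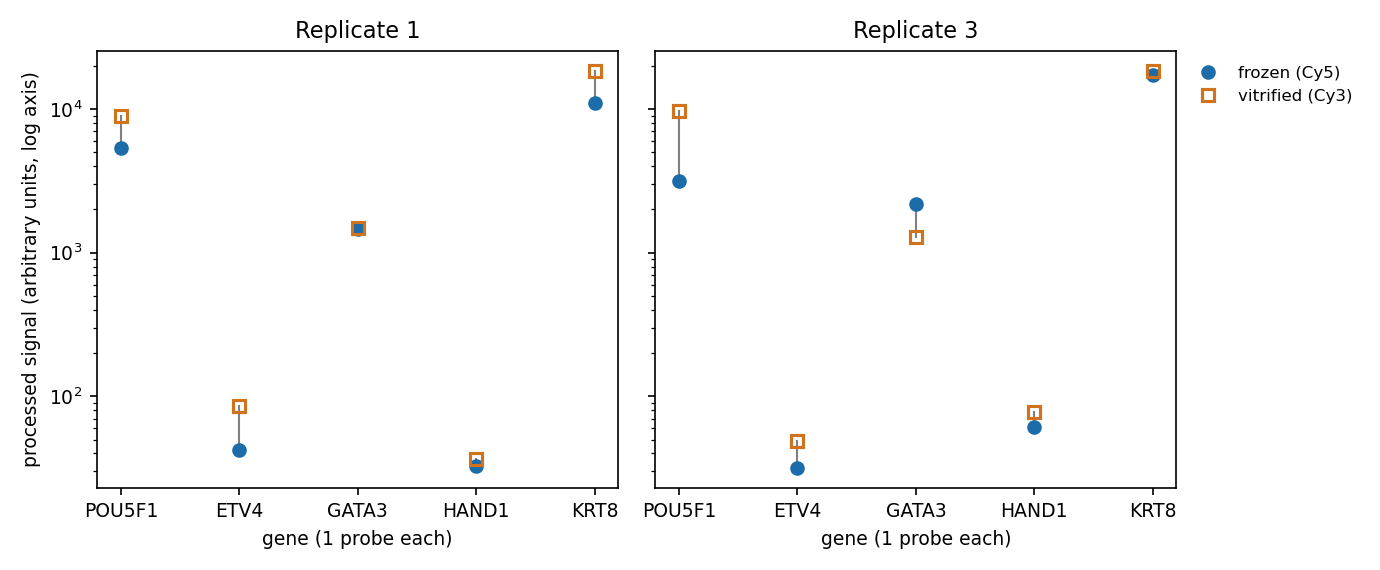
Processed signal in arbitrary units (y axis, log scale) of each gene (x axis) on replicates 1 and 3, with frozen embryos as filled circles and vitrified embryos as open squares joined by a line. The signal of POU5F1 was lower in frozen embryos on both arrays, that of KRT8 clearly so on replicate 1, and that of GATA3 higher in frozen embryos on replicate 3; heights of different genes are not comparable because each rests on its own probe.

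The trophoblast list as a whole lay near 0. Of its 46 genes 18 were measured, with 9 means below 0 and 9 above it, a median of 0.04, and 0.07 without GATA3, HAND1 and KRT8. Turning the sign of replicate 2 made the median -0.03. Below 0 on all 3 arrays were 2 of the 18, against 10.9% of all probes, and above 0 on all 3 were 3, against 11.7%. These were GATA2, the factor TFAP2A with 0.59, 0.03 and 0.05, and the nuclear receptor PPARD with 0.17, 0.44 and 0.51. The mean of PPARD was 0.37 ± 0.18 (SD, n = 3; limma, adjusted p = 1.00). TFAP2C, which acts beside GATA3 in the trophoblast, had -0.31, 0.24 and 0.36. It shared the sign of GATA3 on replicates 2 and 3, while GATA3 was level on replicate 1 at -0.04. Over all probes replicates 2 and 3 correlated at 0.48, so the shared signs are not read as particular to this pair. CDX2, TEAD4 and KRT7 were not analysed here.

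Ordered by their mean log2 ratio from lowest to highest, the genes were POU5F1, ETV4, HAND1, KRT8 and GATA3. The 95% intervals of neighbours in this order overlapped, and that of POU5F1 did not reach that of GATA3. These intervals are not adjusted over probes, and this pair was the lowest and the highest of the 5, so no separation is read from them. Turning the sign of replicate 2 put KRT8 below HAND1, and the intervals of POU5F1, -1.62 to 0.38, and GATA3, -0.61 to 0.71, then overlapped. Within each array the ratio of POU5F1 was below that of GATA3, by -0.71, -1.08 and -2.38, a mean difference of -1.39 ± 0.88 (SD, n = 3). The ratio of ETV4 was below that of GATA3 on each array too, with a difference of -0.63 on replicate 2 and -1.39 on replicate 3. POU5F1 was below HAND1 on all 3 arrays too, by -0.59, -0.20 and -1.28, but against KRT8 the difference on replicate 1 was -0.01. These differences are given as values without a test. GATA3 lay highest of the 5 on every array. Both orders rest on the inferred sign of replicate 2: turned, GATA3 was lowest of the 5 on that array at -0.56, and POU5F1 exceeded it there by 1.08, ETV4 by 0.63. POU5F1 then also exceeded HAND1 on that array, by 0.20.

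Genes whose 3 ratios were most like those of each gene were found by Euclidean distance over the 3 arrays, among 6515 other named genes. For POU5F1 they included TF and NEFM, at distances of 0.29 and 0.30, where the median distance was 1.91. Transferrin (TF), an iron carrier, had -0.47, -0.56 and -1.69. The genes nearest to ETV4 were EPHB4, TBL2 and SMO, at 0.12 to 0.19 with a median of 1.23 over all genes. PHKA1, MAP2K6 and SNX19 were nearest to GATA3, at 0.10 to 0.14 with a median of 1.01. SEPHS1, SF3B4 and NFIL3 lay within 0.04 of HAND1, and PPFIBP1, EHD3 and BCAR1 within 0.06 of KRT8, with medians of 0.70 and 0.84. Genes with ratios near 0 have more close neighbours, and 3 arrays give only 3 coordinates.

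**Figure D4:**
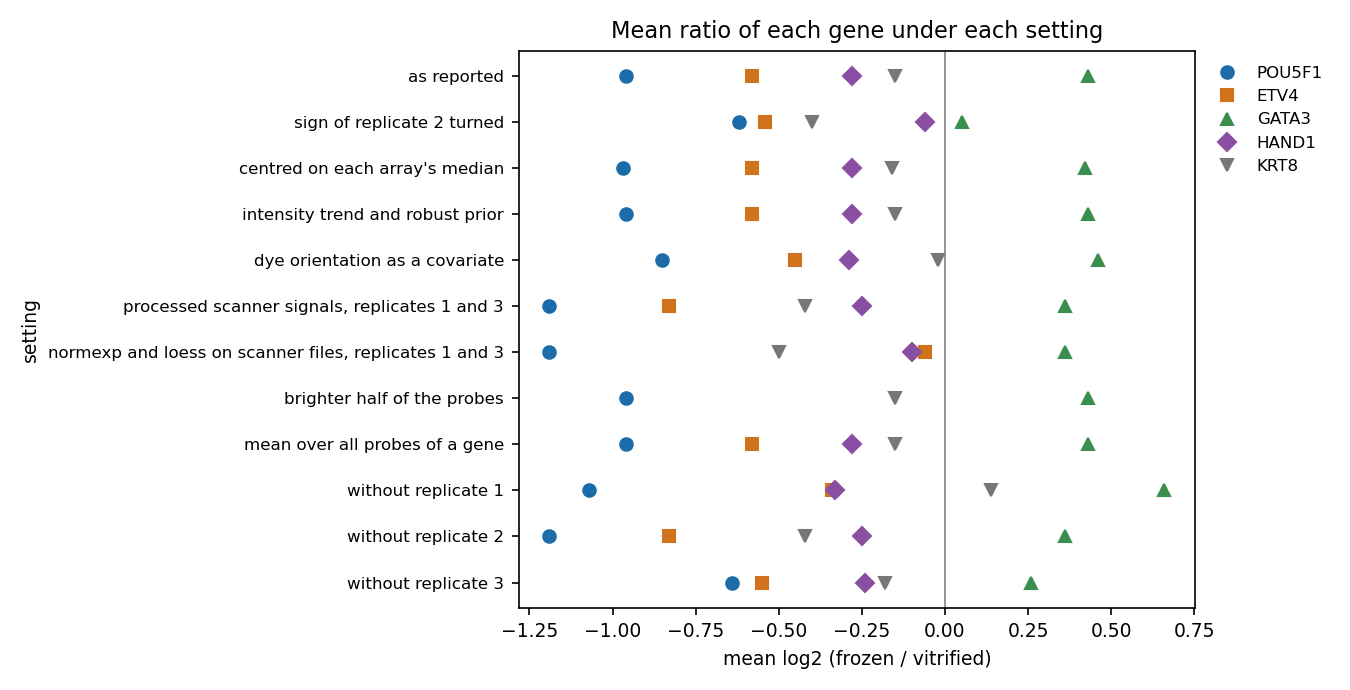
Mean log2 ratio of frozen over vitrified (x axis) of each gene under each way of processing the arrays (y axis); ETV4 and HAND1 have no point in the setting that keeps only the brighter probes. POU5F1 stayed between -1.19 and -0.62, ETV4 was at -0.06 with normexp and loess, and KRT8 crossed 0 without replicate 1.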

How the data were processed

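Members and gene lists were chosen with earlier results of these data known. Agilent Feature Extraction 10.10.1.1 made the scanner files, per the submitters' processing notes. Those of replicates 1 and 3 hold, per the file headers, spot intensity in each channel, raw and processed (background-subtracted and dye-normalized), and a log10 ratio with its error and p-value, converted here to log2. The authors deposited a table of log2 ratios for all 3 arrays, with scale, centring and direction unstated, and only this table was used for replicate 2. Over the 22818 table probes with 1 spot, replicates 1 and 3 equalled log2 of processed Cy5 over Cy3 intensity (frozen over vitrified) within 3e-06 and 2e-06. Column medians were -0.015, 0.021 and 0.017. The 10 spike-in probes had correlations of 0.99 for replicates 1 and 3, and of -1.00 for replicate 2 with either, from which the direction of replicate 2 was inferred. Control probes (26 of 22865 rows) were left out. All 22839 others, of 43603 on the array, had signals well above background in each scanner channel; no source used here gives the authors' filter.

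Of these probes 14319 had 1 symbol in the current RefSeq table (mOryCun1.1), 10 several and 8510 none; KRT18 was named from the array's description. The brightest probe stood for a gene. Ratios were tested against 0 with limma 3.58.1 in R 4.3.3 with Benjamini-Hochberg adjustment over all probes; the test was tried on simulated data. Named genes were the 5 members, up to 4 genes per list with the largest mean of 1 sign on all arrays, fixed partners and the 3 nearest genes by pattern. ESRRB, OTX2, NODAL, HBA, HBB2, ALAS2, S100A9, CD68, APOA1, RBP4, DKK1 and COL4A1 were named after their values were seen. Of the genes so chosen, 3 are not reported here. The number of arrays limits the precision. Alternatives changed the sign of replicate 2, centring, the prior, a dye term, the source and background correction of signals, the probes used and the arrays used. Other steps used Python 3.11.15, pandas 2.3.3 and matplotlib 3.10.9.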

Additional observations from a re-analysis of the deposited data

Results flagged for a closer look

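Of the listed genes around the 5 regulators, 24 had probes on the array but none in the deposited table of values. Signal appeared outside that table for 7 of them, CYP19A1, DSC3, DUSP6, FGFR2, MDFI, SPRY1 and TRIM63, whose frozen channel was well above background on both scanner arrays. The vitrified channel was well above background on both arrays for 0 of the 24. All 22839 probes of the table were well above background in each scanner channel. Genes outside it are thus in part selected for a channel that fails, so neither count is read as a difference between the storage methods. Frozen embryos were in Cy5 on both of these arrays, so that dye and storage method cannot be told apart. Of all probes of the array, 66.0% and 68.6% were well above background in the frozen channel of replicates 1 and 3. In the vitrified channel 54.4% and 58.3% were. These shares include the probes of the table, and shares for probes outside it were not computed. For CYP19A1, the aromatase gene of the trophoblast, both probes had a frozen channel well above background on both arrays. Its brighter probe read 38.1 in frozen and 18.1 in vitrified embryos on replicate 1 and 21.9 and 7.31 on replicate 3. DUSP6, a target of ERK signalling with 5 such probes, read 14.8 and 31.6 on replicate 1 and 27.2 and 29.8 on replicate 3 with its brightest probe, and no direction is read from these values.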

How the results depend on the processing

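POU5F1 and GATA3 kept their direction in each of 11 alternatives, with means of -1.19 to -0.62 and of 0.05 to 0.66, and ETV4 and HAND1 in each of the 10 that could be run for them, with means of -0.83 to -0.06 and of -0.33 to -0.06; both were too dim for the setting that keeps only the brighter probes. KRT8 kept its direction in 10 of 11. Part of these counts was fixed in advance. With 1 probe per gene, changing the prior, keeping the brighter probes or averaging a gene's probes leaves the mean as it was. The processed scanner signals of replicates 1 and 3 repeat the fit without replicate 2. Leaving out 1 array at a time gave means of -1.19 to -0.64 for POU5F1, -0.83 to -0.34 for ETV4, 0.26 to 0.66 for GATA3, -0.33 to -0.24 for HAND1 and -0.42 to 0.14 for KRT8, and 0 to 796 called probes, the 796 without replicate 1. In that fit GATA3 passed the threshold and POU5F1 had an adjusted p of 0.054; the cause was not tested. No other alternative called a probe. The median of the hypoblast list was 0.03 with the sign of replicate 2 turned. The ratio within an array is itself the paired comparison of its samples. Dim signals limit ETV4 and HAND1, whose raw spots were 2.04 to 4.09 times local background.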
